A study of Rattus norvegicus with 28 samples.

Results

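The response of INS-1 cells to 16 h of forskolin (FSK) was compared between WT cells and cells that carry the S983A substitution in Med14. INS-1 cells come from a rat insulinoma and release insulin, and FSK activates adenylyl cyclase and raises cAMP. The value examined for each gene was a difference of differences on the log2(TPM + 1) scale, namely the change from untreated cells (CON) to 16 h of 10 µM FSK in Med14 S983A minus the same change in WT. It rests on 8 of the 28 RNA-seq libraries of the series, 2 each for WT CON, WT 16 h FSK, Med14 S983A CON and Med14 S983A 16 h FSK. A positive value means that the response was higher, or the fall smaller, in Med14 S983A. Of 17455 gene symbols in the table, the 10275 that averaged 1 TPM or more (a level scaled for transcript length and library size) over the 28 libraries were tested. The Med14 S983A cells are genome-edited knock-in cells grown from sorted single cells. The study states that 2 independently generated lines of this kind were used in all its experiments. Which line gave each library is not stated. The substitution and the history of a clone therefore cannot be told apart here (1997 genes differed between the genotypes at CON). The study calls the replicates biological, and how their cultures were separated is not given in the sources used here.

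cAMP activates protein kinase A (PKA), which phosphorylates CREB and lets it recruit coactivators to its target genes. Mediator is the multi-subunit complex that carries signals from such factors to RNA polymerase II, and Med14 is the subunit that holds its modules together. The serine that S983A replaces lies in a PKA motif, and alanine at that place cannot be phosphorylated. In beta cells a short cAMP signal induces a set of early genes, many of which encode inhibitors of the pathway itself, and a longer signal changes genes of secretion and metabolism. The comparison asks which of the late changes differ when the residue is alanine.

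Med14 itself was read at 21.5 and 20.3 TPM in WT CON, 21.5 and 21.7 TPM in WT after FSK, 19.6 and 20.3 TPM in Med14 S983A CON and 19.6 and 21.2 TPM in Med14 S983A after FSK. Its genotype difference in response was -0.01 ± 0.09 (SE, n = 2 libraries per group) with an adjusted p of 0.91. The edit changes a single residue and leaves the transcript in place, so this level does not check the labels. The 8 libraries held 42551133 to 53755735 fragments, and replicates of 1 group had a Pearson r across genes, on log2 values, of at least 0.998. The spike-in RNA took 0.818% to 0.953% of fragments in the 4 CON libraries and 0.671% to 0.736% in the 4 FSK libraries, in ranges that did not overlap and with both genotypes in each.

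In WT, 16 h of FSK raised 1062 genes (10.3% of those tested) and lowered 2478 (24.1%), counting genes with a fold change over 1.5 and a limma adjusted p below 0.05. In Med14 S983A it raised 1255 genes (12.2%) and lowered 2168 (21.1%). With libraries scaled on the spike-in RNA, these counts were 2274 and 1172 in WT and 2101 and 1420 in Med14 S983A. The difference between the genotypes itself passed the same thresholds for 1749 genes, of which 1091 (10.6% of those tested) had a higher and 658 (6.4%) a lower response in Med14 S983A. The change was larger than 1 on the log2 scale for 306 of the higher and 191 of the lower genes, and larger than 2 for 35 and 23.

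The balance of the 2 directions depended on how libraries were scaled. The median over all genes was 0.08 on TPM, -0.01 with each library centred on its median and -0.06 with libraries scaled on the spike-in RNA, and the higher and lower calls became 802 and 893 with centring and 708 and 1060 with the spike-in. The summed TPM of 10 beta cell marker genes went from 45158 to 45963 in WT CON to 73583 to 76502 in WT after FSK. In Med14 S983A it went from 76244 to 84785 at CON to 51326 to 52122 after FSK. The sum is mostly Ins1, Ins2 and Iapp, and how reads were split between Ins1 and Ins2 is uncertain. In WT, mean Ins1 rose from 34108.5 to 58371.7 TPM and Iapp from 6990 to 14779 TPM. Ins2, Pdx1, Nkx6-1, Nkx2-2, Neurod1 and Slc30a8 fell in WT. In Med14 S983A, mean Ins2 fell from 35068 to 6721 TPM. The part of this sum in the shift of the median was not tested. The calls that held in the same direction under all 3 scalings were 692 of the 1091 higher and 656 of the 658 lower genes.

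**Figure D1:**
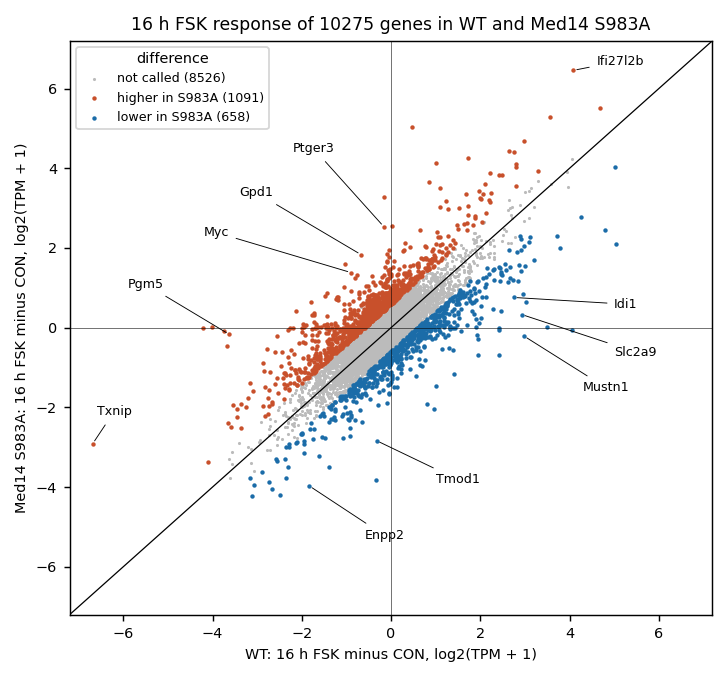
Each point is 1 of 10275 genes, with the 16 h FSK response in WT on the horizontal axis and in Med14 S983A on the vertical axis, both as log2(TPM + 1) differences from CON of the same genotype, and the diagonal marks equal responses. The 1091 genes with a higher response in Med14 S983A lie above the diagonal and the 658 with a lower response lie below it, with Txnip at the far left and Ifi27l2b at the top.

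The genes called for the difference were of several kinds. Among the 658 with a lower response, 182 rose in WT and were not called in Med14 S983A, 94 rose in both genotypes but less in Med14 S983A, and 11 rose in WT and fell in Med14 S983A. A further 164 fell in Med14 S983A and were not called in WT, 129 fell in both and further in Med14 S983A, and 78 were called in neither genotype alone. Among the 1091 with a higher response, 305 fell in WT and were not called in Med14 S983A, 133 fell in both but less in Med14 S983A, and 24 fell in WT and rose in Med14 S983A. Another 291 rose in Med14 S983A and were not called in WT, 108 rose in both and further in Med14 S983A, and 230 were called in neither alone. Of the genes called in opposite directions, all 11 and all 24 held under the 3 scalings.

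The largest lower response among genes of at least 10 TPM was that of Mustn1, a small nuclear protein of muscle and cartilage development (rn6 chr16:6962737-6964987, plus strand). It was read at 33.1 and 35.5 TPM in WT CON and at 287 and 267 TPM in WT after FSK, against 8.05 and 8.75 TPM in Med14 S983A CON and 7.04 and 7.19 TPM after FSK. The WT libraries rose well clear of their controls, while the Med14 S983A libraries stayed low and the FSK pair lay just under the CON pair. The difference was -3.19 ± 0.09 with an adjusted p of 1.2e-18. Ndrg4, a cytoplasmic protein of the NDRG family found mainly in brain and heart (chr19:9766439-9777465, minus strand), moved in opposite directions. Its level went from 123 and 119 TPM to 242 and 246 TPM in WT and from 244 and 236 TPM to 87.8 and 85.7 TPM in Med14 S983A, a difference of -2.46 ± 0.06 (adjusted p = 1.7e-20). The 2 genotypes thus changed places, with WT lower at CON and higher after FSK.

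The glycolytic aldolase Aldoc also rose in WT (2.79 to 13.7 TPM, group means of 2 libraries) and fell in Med14 S983A (14.8 to 8.85 TPM), a difference of -2.64. Several other genes were higher in Med14 S983A than in WT at CON and rose further in WT. Slc2a9, a urate and hexose transporter, went from 1.43 to 17.5 TPM in WT and from 20.2 to 25.7 TPM in Med14 S983A. Nxph4, a secreted ligand of neurexins, went from 4.59 to 28.7 TPM in WT and had means of 21.8 and 21.9 TPM in Med14 S983A. The G protein gamma subunit Gng8, the COPI coat subunit Copz2 and the KDEL receptor Kdelr3, which returns ER proteins from the Golgi, were likewise higher in Med14 S983A at CON, and their differences were -2.25, -2.12 and -2.40. In contrast, Tmod1, a cap of actin filament ends, had means of 14.6 and 11.4 TPM in WT and fell from 25.7 to 2.74 TPM in Med14 S983A. Enpp2, the enzyme autotaxin that makes lysophosphatidic acid, and Pcp4l1, a small calmodulin-binding protein homolog, fell in both genotypes and further in Med14 S983A, with differences of -2.13 and -2.11.

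**Figure D2:**
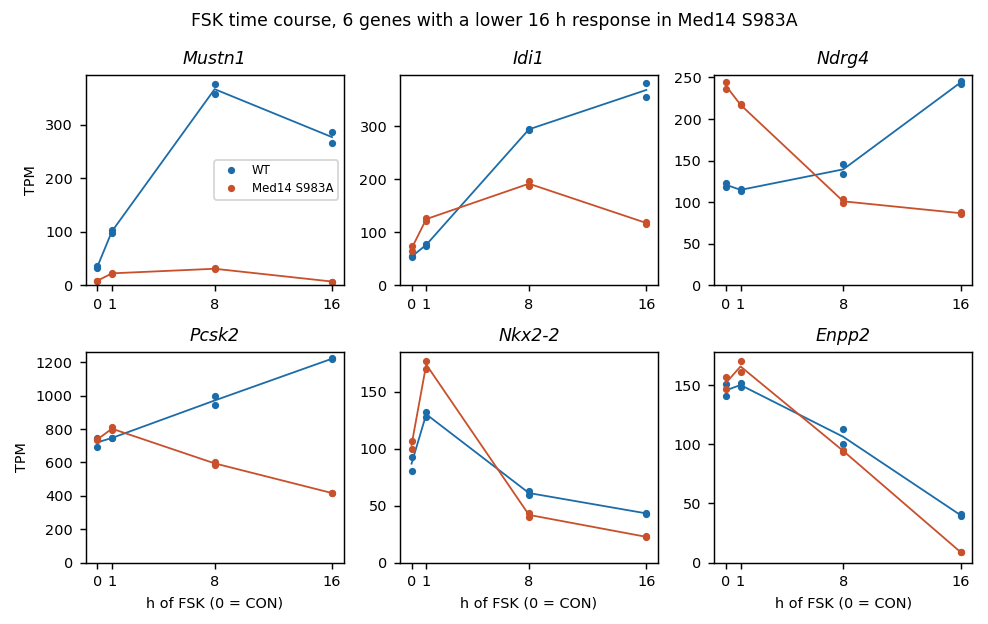
TPM of 6 genes with a lower 16 h response in Med14 S983A against hours of FSK, with 0 for CON, each point a library and each line through the mean of 2 libraries (WT blue, Med14 S983A orange). At 16 h the WT libraries lie above the Med14 S983A libraries in all 6 panels, the Ndrg4 lines cross between 1 and 8 h, and the Enpp2 means at 16 h are 40.1 TPM in WT and 8.77 TPM in Med14 S983A.

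The largest higher response was that of Txnip, an arrestin-like protein that binds thioredoxin and restrains glucose uptake (chr2:198683168-198686968, plus strand). It was read at 329 and 312 TPM in WT CON and at 1.92 and 2.33 TPM after FSK, against 55.9 and 52.9 TPM in Med14 S983A CON and 6.32 and 6.34 TPM after FSK. It fell in both genotypes, from a higher start to a lower end in WT, and the difference was 3.77 ± 0.12 (adjusted p = 4.8e-18). Its relative Arrdc4 moved the same way, with a difference of 1.09. Myc, the growth-promoting transcription factor (chr7:102586313-102591239, plus strand), was at 69.4 and 70.5 TPM in WT CON and 36.5 and 37.8 TPM after FSK, against 55.5 and 56.5 TPM in Med14 S983A CON and 146 and 148 TPM after FSK. It thus fell in WT and rose in Med14 S983A, with a difference of 2.27 ± 0.07 (adjusted p = 1.4e-18). Gpd1, the cytosolic glycerol-3-phosphate dehydrogenase of the NADH shuttle (chr7:141370540-141377930, plus strand), fell from 130 and 123 TPM to 80.2 and 77.7 TPM in WT and rose from 23.2 and 24.3 TPM to 88.3 and 86.0 TPM in Med14 S983A, a difference of 2.5 ± 0.08. The genotypes lay far apart at CON and near each other after FSK.

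Car2, a cytosolic carbonic anhydrase, fell from 23.1 to 10.7 TPM in WT and rose from 19.8 to 61.5 TPM in Med14 S983A, a difference of 2.63. Ptger3, an inhibitory prostaglandin E2 receptor that lowers cAMP, rose from 4.77 to 32.3 TPM in Med14 S983A and had means of 13.8 and 12.2 TPM in WT, a difference of 2.69. The lactate and pyruvate transporter Slc16a1, which normal beta cells keep low, rose from 7.35 to 18.7 TPM in WT and from 9.68 to 96.2 TPM in Med14 S983A. Ifi27l2b, a member of the interferon alpha-inducible protein 27 family, rose from 6.46 to 125 TPM in WT and from 4.62 to 487 TPM in Med14 S983A. The cationic amino acid transporter Slc7a2 fell from 63.8 and 56.1 to 8.76 and 9.87 TPM in WT and had means of 9.74 and 8.21 TPM in Med14 S983A, and Misp3 fell from 101 to 36.7 TPM in WT and rose from 13.4 to 25.2 TPM in Med14 S983A, with differences of 2.34 and 2.3. Cyp4a8, a fatty acid omega-hydroxylase, fell from 41.4 to 23.3 TPM in WT and rose from 8.97 to 22.8 TPM in Med14 S983A. The membrane protein Ifitm1 and the heat shock protein relative Hspa12a complete the 12 largest higher responses among genes averaging at least 10 TPM with at least 5 TPM in each genotype, with differences of 2.10 and 1.98.

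**Figure D3:**
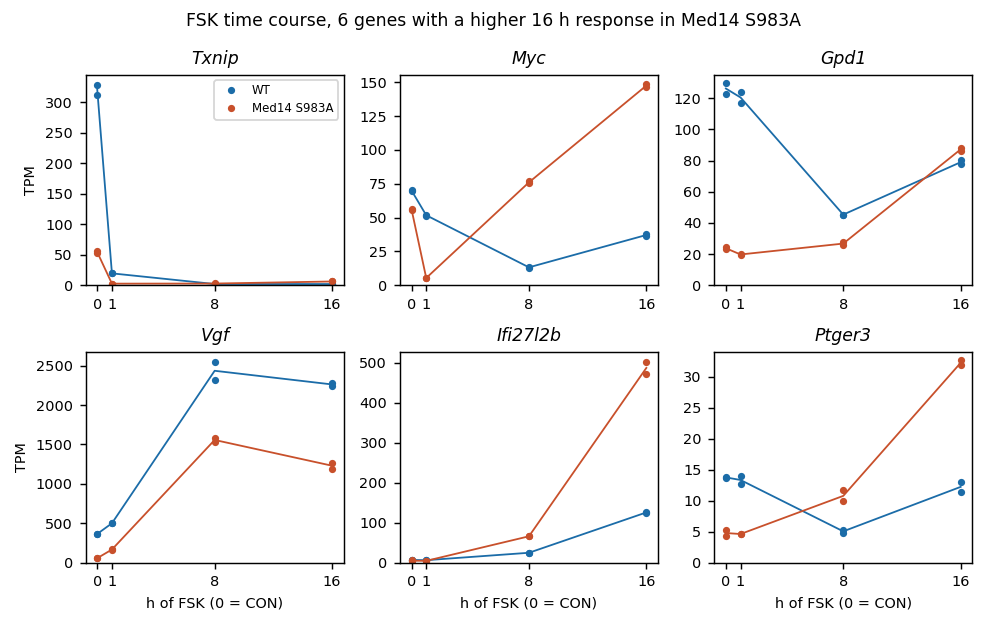
TPM of 6 genes with a higher 16 h response in Med14 S983A against hours of FSK, with 0 for CON, each point a library and each line through the mean of 2 libraries (WT blue, Med14 S983A orange). Myc, Gpd1 and Ptger3 start lower in Med14 S983A and end higher, Vgf is lower in Med14 S983A at each time, and Txnip falls within 1 h in both genotypes.

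The genes next described had group means under 5 TPM in 1 genotype at CON and after FSK, and for such genes the value depends on the scale. Pmp22, a myelin membrane protein, went from 11.9 to 67.4 TPM in WT and was at 0.08 and 0.04 TPM in Med14 S983A (difference -2.46), while Pgm5, a phosphoglucomutase relative of muscle adhesion sites, fell from 85.4 to 6.02 TPM in WT and was at 0.30 and 0.15 TPM in Med14 S983A (difference 3.45). The ephrin receptor Ephb3 and the guidance cue Sema3a rose from 1.93 to 50.6 TPM and from 0.99 to 37.3 TPM in Med14 S983A, and from 1.12 to 3.25 TPM and from 0.59 to 4.22 TPM in WT. Plat, the tissue plasminogen activator, rose from 1.02 to 65.8 TPM in WT and from 0.04 to 3.47 TPM in Med14 S983A, and the orphan receptor Gprc5a from 0.55 to 42.0 TPM and from 0.04 to 4.75 TPM. Their differences of -2.94 and -2.34 on log2(TPM + 1) reversed to 0.41 and 0.33, not called, in the edgeR test on recovered fragments, which compares folds without the added 1 TPM. Over all genes, 846 of the higher and 618 of the lower calls were made in the same direction by edgeR and 4 (Rxfp3, Slc7a11, Trpv3 and Wwtr1, named after their values were seen) in the opposite one.

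Cholesterol synthesis was the gene list with the lowest median. Cells make cholesterol from acetyl-CoA through mevalonate, and the genes of this route are switched on together by SREBP-2 when membrane sterol is low. In WT, 20 of the 22 genes tested rose and 0 fell after 16 h of FSK, and in Med14 S983A 11 rose and 0 fell. Of all genes tested, 10.3% rose and 24.1% fell in WT, and 12.2% rose and 21.1% fell in Med14 S983A. The difference was called lower for 15 of 22, against 6.4% of all genes tested, and higher for 0. The median response was 1.57 in WT and 0.58 in Med14 S983A, and the median difference was -0.95 on TPM, -1.04 after centring and -1.10 with spike-in scaling, beside 0.08, -0.01 and -0.06 over all genes.

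The largest difference was that of Idi1, which isomerizes the 5-carbon building block (chr17:57976266-57984036, minus strand). It rose from 54.9 and 53.3 TPM to 356 and 381 TPM in WT and from 74.5 and 64.2 TPM to 119 and 116 TPM in Med14 S983A, a difference of -1.99 ± 0.08 (adjusted p = 2.7e-16). Hmgcs1, which makes HMG-CoA (chr2:52427579-52445082, plus strand), rose from 80.8 and 78.6 TPM to 387 and 393 TPM in WT. In Med14 S983A it was at 90.1 and 79.9 TPM at CON and 118 and 117 TPM after FSK, and the difference was -1.81 ± 0.08 (adjusted p = 1.2e-15). For both genes the CON libraries of the genotypes lay close together and the FSK libraries far apart. Fdps, which joins the isoprene units to farnesyl diphosphate, rose from 299 to 1858 TPM in WT and from 490 to 1093 TPM in Med14 S983A, a difference of -1.47 ± 0.04. Fdft1, which makes squalene, and Sqle, which oxidizes it on the way to sterols, had differences of -1.28 and -1.39. The other called members were Acat2, Mvk, Mvd, Lss, Cyp51, Tm7sf2, Msmo1, Nsdhl, Hsd17b7 and Ebp, with differences from -1.35 to -0.60. Mvd was not called when any of 4 libraries was left out (values from -0.58 to -0.54). The members beyond Idi1, Hmgcs1 and Fdps were named after their values were seen.

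**Figure D4:**
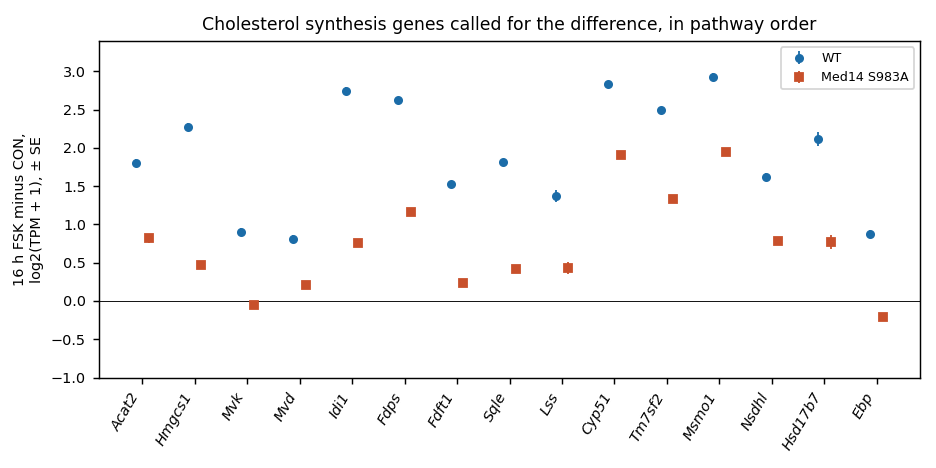
The 16 h FSK response of the 15 cholesterol synthesis genes called for the genotype difference, in the order of the route, as log2(TPM + 1) differences from CON with SE, WT as blue circles and Med14 S983A as orange squares. The squares lie below the circles for all 15 genes, most widely for Idi1 (2.75 and 0.76).

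The regulators and transporters of sterol moved with less uniformity. Of 18 tested, 6 had a lower and 3 a higher response (10 and 1 with spike-in scaling). Over all genes tested, 6.4% were lower and 10.6% higher, and with spike-in scaling 1060 and 708 of 10275. Insig1, the ER anchor that holds SREBP back when sterol is plentiful and is itself an SREBP target, rose from 67.8 to 454 TPM in WT and from 130 to 299 TPM in Med14 S983A (difference -1.53). The sterol carrier Stard4 rose from 25.3 to 50.4 TPM in WT and had means of 21.6 and 21.8 TPM in Med14 S983A (difference -0.95). The exporters that respond to sterol load went the other way. Abca1 fell from 48.2 to 4.29 TPM in WT and from 39.5 to 11 TPM in Med14 S983A (difference 1.46). Abcg1 had a difference of 0.66, which was not called under median-centring, spike-in scaling, edgeR or DESeq2, and the cholesterol-esterifying enzyme Soat1 one of 0.71, which was not called with any spike-in scaling. The genes of fatty acid synthesis and activation were mixed, with 4 of 26 higher and 6 lower, beside 10.6% and 6.4% of all genes. Acss2, which makes acetyl-CoA from acetate, and the desaturase Fads1 had differences of -1.13 and -0.83, while Elovl7, Acaca and Acsl5 had 1.24, 0.95 and 0.86.

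Beta cell transcription factors were called in 1 direction only. These proteins hold beta cell identity and switch on insulin and its secretory genes. In WT, 13 of the 20 tested fell and 1 rose, and in Med14 S983A 14 fell and 1 rose. Of all genes tested, 24.1% fell and 10.3% rose in WT, and 21.1% fell and 12.2% rose in Med14 S983A. The response was lower in Med14 S983A for 10 of 20, against 6.4% of all genes, and higher for 0, and all 10 calls were also made under centring, spike-in scaling and edgeR. The median difference was -0.57 on TPM and -0.69 with spike-in scaling. Nkx2-2, which is needed to form beta cells (chr3:141408798-141411170, minus strand), went from 93.0 and 80.7 TPM to 42.9 and 43.4 TPM in WT and from 99.5 and 107 TPM to 22.9 and 22.2 TPM in Med14 S983A. The genotypes lay close at CON, and after FSK the Med14 S983A libraries lay below the WT libraries, with a difference of -1.16 ± 0.08 (adjusted p = 3.8e-12). Isl1, a LIM homeodomain factor, went from 167 to 105 TPM and from 140 to 41.0 TPM (difference -1.08). Others called were Mnx1, Neurod1, Nkx6-1, Rfx6, Pdx1, Pax6 and Myt1, with differences from -0.97 to -0.59, named after their values were seen. Pdx1 and Myt1 lay near the threshold and were not called when any of 3 and of 4 libraries was left out.

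Insulin, its processing enzymes and the granins showed 9 of 18 with a lower and 3 with a higher response, beside 6.4% and 10.6% of all genes. Ins1 (chr1:272799784-272800349) rose from 34501 and 33716 TPM to 59777 and 56967 TPM in WT and was at 38834 and 42395 TPM at CON and 41155 and 41811 TPM after FSK in Med14 S983A, a difference of -0.74 ± 0.08. Ins2 (chr1:215856967-215858034) started from unlike levels, and it fell from 2885 and 2991 TPM to 1154 and 1080 TPM in WT and from 32620 and 37516 TPM to 6719 and 6724 TPM in Med14 S983A, a difference of -0.98 ± 0.08. The coding sequences of Ins1 and Ins2 are near copies, so how reads were split between them is uncertain.

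Pcsk2, a convertase that cuts proinsulin (chr3:137618891-137923385, plus strand), rose from 748 and 693 TPM to 1221 and 1224 TPM in WT and fell from 739 and 737 TPM to 417 and 417 TPM in Med14 S983A. All CON libraries lay in the same range and the FSK libraries lay on either side of it, and the difference was -1.59 ± 0.05 (adjusted p = 4e-18). Pcsk1, the other convertase, fell from 99.8 to 52.1 TPM in WT and from 163 to 27.3 TPM in Med14 S983A (difference -1.6), and the zinc transporter of the insulin granule, Slc30a8, fell from 777 to 401 TPM and from 783 to 156 TPM (difference -1.37). The 3 members with a higher response were the granin-like Vgf (1.81), the oxidase Ero1b (0.76) and Chgb (0.59), and the last was not called under 9 of 20 alternatives. Vgf (chr12:22677607-22680630, minus strand) rose in both genotypes, from 367 and 360 TPM to 2242 and 2282 TPM in WT and from 51.9 and 59.4 TPM to 1267 and 1192 TPM in Med14 S983A. Its level stayed lower in Med14 S983A while its relative rise was larger.

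In the exocytosis machinery, 8 of 32 genes had a lower and 1 a higher response, beside 6.4% and 10.6% of all genes. The SNARE protein Snap25 rose from 155 to 379 TPM in WT and had means of 242 and 267 TPM in Med14 S983A (difference -1.14), and the vesicle GTPase Rab3a rose from 174 to 373 TPM in WT against 219 and 229 TPM (difference -1.04). Rab27a, which docks granules, had means of 9.09 and 9.02 TPM in WT and fell from 27.1 to 12.1 TPM in Med14 S983A (difference -1.10). The calcium sensor Syt5 rose in both, from 367 to 630 TPM and from 101 to 341 TPM, and was the member with a higher response (0.97). Among 9 neuropeptide and hormone genes tested, 4 were higher and 2 lower, beside 10.6% and 6.4% of all genes. The glucagon gene Gcg rose from 167 to 785 TPM in WT and from 6.32 to 107 TPM in Med14 S983A (difference 1.66), Tac1, which encodes substance P, from 8.01 to 105 TPM and from 8.14 to 355 TPM (difference 1.73), and Cartpt from 8.39 to 86.0 TPM and from 11.3 to 38.5 TPM (difference -1.53). Channel genes were split, with 6 of 37 in each direction, beside 10.6% higher and 6.4% lower over all genes. The potassium channel Kcnk16 (1.06) and the sodium channel Scn3a (1.25) were among the higher ones. Kcnq1 (-1.22) and the IP3 receptor Itpr1 (-1.13) were among the lower ones.

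The genes of cAMP signalling were called in both directions. Of 20 early transcription factor genes, 17 rose in WT and 15 in Med14 S983A at 16 h, and the difference was higher for 5 and lower for 3. Fos and Fosl2 had differences of -0.03 ± 0.15 (adjusted p = 0.86) and -0.04 ± 0.11 (adjusted p = 0.76), while Junb (0.82) had a higher and Jund (-0.70) a lower response. Of 34 feedback genes, which end the cAMP signal or act against kinases, 9 were higher and 7 lower. Crem, whose short form represses CREB targets, rose from 11.2 to 83.4 TPM in WT and from 4.72 to 96.5 TPM in Med14 S983A (difference 1.31), and the phosphatase Dusp4 and the phosphodiesterase Pde2a had differences of 0.88 and 0.75. Rgs2, which shortens G protein signals, rose in both and less in Med14 S983A (-0.69, not called without replicate 1 of Med14 S983A CON). The phosphodiesterase Pde10a had a difference of -0.08 ± 0.12 and the kinase Sik1 one of 0.55 ± 0.14, and neither was called, though Sik1 was called under 9 of 20 alternatives. Among 24 genes for cAMP production and PKA, 2 were higher and 1 lower. Over all genes tested, the difference was higher for 10.6% and lower for 6.4%, and FSK raised 10.3% in WT and 12.2% in Med14 S983A.

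Of 11 genes known or named as delayed cAMP targets, 9 rose in WT and 7 in Med14 S983A, beside 10.3% and 12.2% of all genes. The response was lower for 7 and higher for 2 (6 and 2 by edgeR), beside 6.4% and 10.6% of all genes. Of the 7 lower, Scg2 and Pcsk1 fell in both genotypes. Their responses were -2.58 and -0.92 in WT and -3.31 and -2.53 in Med14 S983A. Plat, also among the 7, was not called by edgeR or DESeq2, which gave it a positive difference. The endothelial growth factor receptor Kdr rose from 0.40 to 4.68 TPM in WT and was at 0.06 and 0.25 TPM in Med14 S983A (difference -1.78), and the lipid transfer protein Osbpl6 rose from 5.94 to 14.8 TPM in WT and had libraries between 4.19 and 5.48 TPM (difference -0.92). Irs2, the insulin receptor substrate, rose in both genotypes, from 38.0 to 124 TPM and from 30.1 to 72.9 TPM, and its difference of -0.43 did not reach the fold threshold. Plat, Kdr, Osbpl6 and Irs2 were named by the study on these samples, so this list is not independent evidence of its direction.

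Of 35 genes of glycolysis and pyruvate handling, 6 were higher and 1 lower (4 and 5 with spike-in scaling), and of 30 genes of the TCA cycle and shuttles, 2 were higher (Gpd1, and Suclg2 at 0.67, which was not called under 6 of 20 alternatives) and 0 lower. Over all genes tested, 10.6% were higher and 6.4% lower, and with spike-in scaling 708 and 1060 of 10275. The glycolytic enzyme Eno1 rose from 584 to 1250 TPM in Med14 S983A and had means of 511 and 617 TPM in WT (difference 0.82). The kinase Pdk1, which shuts pyruvate out of the TCA cycle, had a difference of 0.67, which was not called under median-centring or any spike-in scaling. Sucla2, Sdhc and Ogdh of the TCA cycle had differences of -0.34, -0.26 and 0.05, the cytosolic malate dehydrogenase Mdh1 had -0.27, and none of these was called. Of 31 genes of fatty acid oxidation, 3 were higher, beside 10.6% of all genes, and 0 lower (3 and 3 with spike-in scaling). The higher members were Cyp4a8, Acaa2 (1.21) and Hadhb (0.94). Cpt1a, which carries fatty acids into mitochondria, had a difference of 0.47. Of 81 respiratory chain and ATP synthase genes, 0 were higher and 1 lower, with a median difference of -0.03. With spike-in scaling the medians of 8 lists turned from positive to negative, namely the TCA cycle, fatty acid oxidation, glycolysis, cAMP production, ATF4, cell cycle, interferon and Mediator lists, from at most 0.11 on TPM to at least -0.15.

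Of 18 heat shock and chaperonin genes, which include mitochondrial members, 7 were higher and 0 lower on TPM. With spike-in scaling 4 were higher and 1 lower. All genes tested gave 10.6% higher and 6.4% lower on TPM, and 708 and 1060 of 10275 with spike-in scaling. The mitochondrial chaperonin Hspd1 had means of 409 and 407 TPM in WT and rose from 351 to 680 TPM in Med14 S983A (difference 0.96), and the HSP110 protein Hsph1 rose from 104 to 208 TPM in Med14 S983A (difference 0.88). Of 25 antioxidant genes, 7 were higher and 1 lower. Gclc, which starts glutathione synthesis, had means of 13.2 and 12.8 TPM in WT and rose from 11.2 to 31.0 TPM in Med14 S983A (difference 1.43), and Nfe2l2, the factor that governs these genes, rose from 34.0 to 58.8 TPM in Med14 S983A (difference 1.06). Of 37 ATF4 targets and tRNA synthetases, which answer amino acid shortage, 30 rose in WT and 35 in Med14 S983A, beside 10.3% and 12.2% of all genes. The difference was higher for 8, led by Gdf15 (1.26) and Psph (1.19), and lower for 3, Chac1 (-1.49), Trib3 (-0.98) and Slc1a4 (-0.85).

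In the cell cycle list 8 of 48 were higher and 2 lower on TPM, but 4 were higher and 7 lower with spike-in scaling. The shares over all genes were 10.6% and 6.4% on TPM, and the spike-in counts were 708 and 1060 of 10275. Cyclin Ccne1 fell from 59.8 to 21.2 TPM in WT and had means of 42.5 and 38.8 TPM in Med14 S983A (difference 1.33), while the inhibitor Cdkn1a rose from 24.1 to 76.2 TPM and from 6.14 to 42.1 TPM (difference 0.97). The inhibitor Cdkn1b rose from 126 to 237 TPM in WT and had means of 48.7 and 39.5 TPM in Med14 S983A (difference -1.20). Few proteasome and cytosolic ribosomal protein genes passed the fold threshold. All 37 proteasome genes had a difference above 0 on TPM and 31 of 37 with spike-in scaling, with medians of 0.32 and 0.16. Of all 10275 genes, 6010 were above 0 on TPM and 4430 with spike-in scaling. Among the proteasome genes, 1 was called. Of 76 ribosomal protein genes, 71 were above 0 on TPM and 64 with spike-in scaling, with medians of 0.31 and 0.16 on the same scales. By limma 2 of them were called on TPM and 0 with spike-in scaling, and edgeR called 0. An unadjusted p under 0.05 in limma was found for 66 of the 76, beside 6333 of all 10275 genes.

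Of the secretory pathway, 6 of 46 genes of ER translocation and transport were lower and 0 higher (11 and 0 with spike-in scaling), and 29 of the 46 rose in WT against 17 in Med14 S983A. Over all genes tested, 6.4% were lower and 10.6% higher (1060 and 708 of 10275 with spike-in scaling). FSK raised 10.3% of all genes in WT and 12.2% in Med14 S983A. Beside Kdelr3 the lower genes of this list included the coat proteins Copg1 (-0.82) and Sec31a (-0.78). Of 40 ER folding genes, 3 were lower (7 with spike-in scaling), among them Xbp1 (-0.80) and the ER stress kinase Eif2ak3 (-0.78), and 1 was higher, while 27 rose in WT and 25 in Med14 S983A. Of the 30 Mediator subunit genes, 0 were called for the difference by limma and 0 by edgeR. In limma 14 of the 30 had an unadjusted p under 0.05, beside 6333 of all 10275 genes. Of 20 interferon and antigen presentation genes 4 were higher and 1 lower, of 68 mitochondrial ribosomal protein genes 2 and 0, of 15 clock genes 3 and 1, of 27 lysosome genes 0 and 2 (0 and 9 with spike-in scaling and 0 and 7 by edgeR), of 15 BCL2 family genes 0 and 1, and of 8 islet genes named by the study 0 and 2. Of 30 genes the study named, 5 were higher and 8 lower, and as these were picked on the same samples the count is not independent evidence.

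**Figure D5:**
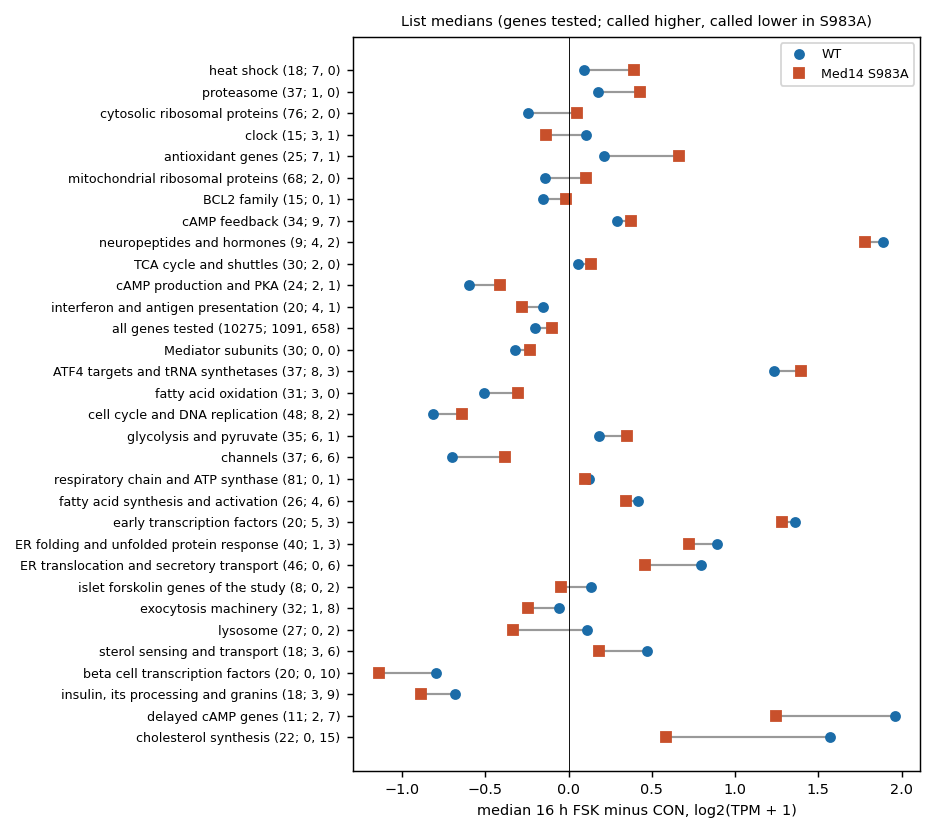
Median 16 h FSK response over the genes of each list in WT (blue circles) and Med14 S983A (orange squares), as log2(TPM + 1) differences from CON, ordered by the median genotype difference. In brackets stand the genes tested and, of these, the number called higher and the number called lower in Med14 S983A. Cholesterol synthesis, at the bottom, has medians of 1.57 and 0.58.

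The genotype difference was not the same at all times. Whether it moved between 8 and 16 h of FSK was tested without the CON libraries, and 934 genes (9.09%) passed. The differences at 8 and 16 h share the CON libraries and are therefore only set side by side. Enpp2 had a difference of -0.23 at 8 h and -2.13 at 16 h, a change of -1.90 ± 0.07 (adjusted p = 2.5e-15). Nxph4 went from -0.37 to -2.41 (change -2.04) and Ifitm1 from -0.03 to 2.10 (change 2.13). Idi1 and Mustn1 had -0.97 and -1.61 at 8 h and moved further by -1.02 and -1.58. Chac1 and Trib3 turned from 0.28 and 0.85 at 8 h to -1.49 and -0.98 at 16 h, with changes of -1.77 and -1.83. Myc, Ptger3 and Vgf had 2.75, 2.32 and 2.05 at 8 h, and their changes of -0.47, 0.37 and -0.24 did not reach the fold threshold.

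Exendin-4 (Ex-4), which raises cAMP through the GLP-1 receptor, was given at 10 nM for the same 16 h. Whether the genotype difference was another one under FSK than under Ex-4 was likewise tested without the CON libraries, and 736 genes (7.16%) passed. Txnip had 3.77 under FSK and 0.08 under Ex-4, and the test of the gap gave 3.69 ± 0.12 (adjusted p = 7.0e-17). Slc2a9 and Tmod1 had -0.53 and -0.56 under Ex-4, with gaps of -2.07 and -1.95, and Vgf and Gcg had 0.25 and 0.12 with gaps of 1.56 and 1.53. Idi1 had -1.19 under Ex-4 and a gap of -0.79. For Fads1 the differences were -0.83 under FSK and -0.75 under Ex-4, with a gap of -0.09 ± 0.05 (adjusted p = 0.22).

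Apart from alpha cell markers, the markers of other cell types had low summed levels. All 4 delta cell markers and both PP and epsilon cell markers were under 1 TPM in all 8 libraries, as were 9 of 11 acinar, 4 of 5 endothelial and 4 of 5 immune markers. The summed acinar level was 13.1 to 14.9 TPM in WT CON, 49.1 to 56.2 TPM in WT after FSK, 16.2 to 17.2 TPM in Med14 S983A CON and 107 TPM in both Med14 S983A libraries after FSK. The summed fibroblast level was 84.0 to 86.4 TPM, 58.1 to 59.1 TPM, 54.4 to 59.1 TPM and 44.6 to 47.3 TPM in the same order, with 5 of 7 markers under 1 TPM. Their part in the results was not tested. The summed level of 7 alpha cell markers was 589 to 1649 TPM, and 4 of the 7 were under 1 TPM in all 8 libraries. In bulk samples fewer cells of a kind and less RNA per cell cannot be told apart. At CON, 9 runs of neighbouring genes on 8 chromosomes differed in level between the genotypes, with run medians from -0.99 to 0.85 over 928 genes. For the response, 10.6% of the genes inside the runs were higher and 6.68% lower, against 10.6% and 6.38% outside.

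Reference promoters (RefSeq, GRCr8, short windows that span the start site) were searched on both strands for the cAMP response element TGACGTCA, its core TGACG, which the full element contains, and the AP-1 site TGACTCA. Of the 24 genes with the largest differences among those of at least 10 TPM that reach 5 TPM in each genotype, 13 had a promoter in the table, and 0 of these held the full element, 1 the core and 1 the AP-1 site, beside 1.91%, 22% and 4.53% of all 27457 promoters and 3.35%, 33.6% and 3.1% of those of the genes tested. The full element was present in 2.86% of the promoters of genes whose response was higher and 4.05% of those whose response was lower. The core was present in 27.1% and 32.8%, and the AP-1 site in 3.09% and 4.25%. The stretches around the single matches are shown because they hold the only matches among these 13 promoters (chosen after the search), with the match in capitals, 5′ to 3′ on the strand of the gene. For Kdelr3 the stretch is chr7:112959484-112959588 on the plus strand, with the core on the opposite strand starting 98 bases before the start site. For Idi1 it is chr17:66547570-66547676 on the minus strand, with the AP-1 site starting 102 bases before it.
Kdelr3: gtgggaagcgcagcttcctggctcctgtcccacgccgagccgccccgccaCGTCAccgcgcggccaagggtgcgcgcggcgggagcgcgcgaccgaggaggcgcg
Idi1: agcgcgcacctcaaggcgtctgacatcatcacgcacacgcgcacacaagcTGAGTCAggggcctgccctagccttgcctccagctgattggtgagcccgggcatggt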

How the data were processed

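Per the study's methods, the authors aligned reads with STAR 2.5.3a to rn6 joined with the ERCC spike-in sequences, and the deposited TPM table was made by the authors with HOMER 4.11.1. The deposited counts are the authors' reads of the 92 ERCC sequences. The spike-in went into equal masses of total RNA, so it tracks RNA per mass rather than per cell. The authors' own comparisons used DESeq2 1.24.0 with ERCC size factors on gene counts, which were not used here.

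Of several transcripts of a symbol, the one highest on average was kept and 1676 others were dropped. Log2(TPM + 1) values of all 28 libraries were fitted in limma 3.58.1 (R 4.3.3) with 14 group means and 14 residual degrees of freedom, two-sided, with Benjamini-Hochberg adjustment over 10275 genes. Because 1 TPM is added, equal folds from unequal low levels give unequal differences. Fragments were recovered from TPM, length and the ERCC reads: of 135800 low values checked, 100% came out whole to a tolerance of 0.05 reads, where chance gives 22.7%. These were tested with edgeR 4.0.16 and DESeq2 1.42.0. The fits were also run on simulated data, and the outcome is not reported here. P-values measure the spread between libraries, which may be technical.

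Named genes were, among called genes averaging 10 TPM or more in the 8 libraries, the 12 largest differences in each direction with a group mean of 5 TPM or more in each genotype, the 3 largest that miss that level in 1 genotype, and up to 3 per direction of each list. Med14 and genes the study names were added. Members and lists were chosen with earlier results of these data known. Alternatives were a pseudocount of 0.1 TPM, no filter, a minimum of 5 TPM, median-centring, ERCC scaling, the 8 libraries alone, a replicate block, each library left out, no fold minimum, and the count tests with their own and ERCC scaling. Some members of the lists are counted but not reported here by name.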

Additional observations from a re-analysis of the deposited data

Results flagged for a closer look

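The responses of 1091 genes were higher and those of 658 lower in Med14 S983A, by limma's test of the difference between the genotypes itself. The genes given in the results that passed this test are listed with their difference on the log2(TPM + 1) scale. No explanation was tested. Pmp22, Pgm5 and Kdr had group means under 1 TPM in Med14 S983A at CON and after FSK. Their differences are therefore mostly the change in WT. Ephb3 and Sema3a had group means under 5 TPM in WT at CON and after FSK, and their values also depend on the scale. The directions of Plat and Gprc5a depend on the added 1 TPM: edgeR, which does not add it, gave 0.41 and 0.33, not called, and the linear folds were 64.6 and 77.1 in WT and 95.2 and 119 in Med14 S983A.

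Genes with a lower response in Med14 S983A were Mustn1 (-3.19), Plat (-2.94), Aldoc (-2.64), Slc2a9 (-2.60), Tmod1 (-2.51), Ndrg4 (-2.46), Pmp22 (-2.46), Nxph4 (-2.41), Kdelr3 (-2.40), Gprc5a (-2.34), Gng8 (-2.25), Enpp2 (-2.13), Copz2 (-2.12), Pcp4l1 (-2.11), Idi1 (-1.99), Hmgcs1 (-1.81), Kdr (-1.78), Pcsk1 (-1.6), Pcsk2 (-1.59), Cartpt (-1.53). The next in order were Insig1 (-1.53), Chac1 (-1.49), Fdps (-1.47), Sqle (-1.39), Slc30a8 (-1.37), Hsd17b7 (-1.35), Fdft1 (-1.28), Kcnq1 (-1.22), Cdkn1b (-1.20), Tm7sf2 (-1.16), Nkx2-2 (-1.16), Snap25 (-1.14), Itpr1 (-1.13), Acss2 (-1.13), Rab27a (-1.10), Ebp (-1.09), Isl1 (-1.08), Rab3a (-1.04). The next in order were Ins2 (-0.98), Acat2 (-0.98), Trib3 (-0.98), Msmo1 (-0.98), Mnx1 (-0.97), Mvk (-0.95), Stard4 (-0.95), Lss (-0.94), Cyp51 (-0.93), Osbpl6 (-0.92), Neurod1 (-0.87), Slc1a4 (-0.85), Nsdhl (-0.84), Fads1 (-0.83), Copg1 (-0.82), Xbp1 (-0.80), Eif2ak3 (-0.78), Sec31a (-0.78), Ins1 (-0.74), Nkx6-1 (-0.72). The next in order were Jund (-0.70), Rgs2 (-0.69), Rfx6 (-0.64), Pdx1 (-0.62), Pax6 (-0.62), Mvd (-0.60), Myt1 (-0.59).

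Genes with a higher response in Med14 S983A were Txnip (3.77), Pgm5 (3.45), Ephb3 (3.14), Ptger3 (2.69), Car2 (2.63), Sema3a (2.54), Gpd1 (2.5), Ifi27l2b (2.37), Slc7a2 (2.34), Misp3 (2.3), Myc (2.27), Ifitm1 (2.10), Cyp4a8 (2.05), Hspa12a (1.98), Slc16a1 (1.95), Vgf (1.81), Tac1 (1.73), Gcg (1.66), Abca1 (1.46), Gclc (1.43). They were followed by Ccne1 (1.33), Crem (1.31), Gdf15 (1.26), Scn3a (1.25), Elovl7 (1.24), Acaa2 (1.21), Psph (1.19), Arrdc4 (1.09), Nfe2l2 (1.06), Kcnk16 (1.06), Syt5 (0.97), Cdkn1a (0.97), Hspd1 (0.96), Acaca (0.95), Hadhb (0.94), Dusp4 (0.88), Hsph1 (0.88), Acsl5 (0.86), Eno1 (0.82), Junb (0.82). They were followed by Ero1b (0.76), Pde2a (0.75), Soat1 (0.71), Suclg2 (0.67), Pdk1 (0.67), Abcg1 (0.66), Chgb (0.59).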

How the results depend on the processing

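The 1091 higher and 658 lower calls ranged from 1016 to 1197 and from 629 to 716 with 1 of the 8 libraries left out, and the median difference from 0.0598 to 0.0971. The same ranges were 1033 to 1090 and 2371 to 2604 for genes higher and lower in WT, and 1197 to 1334 and 2141 to 2232 in Med14 S983A. With ERCC scaling the genotype difference gave 708 higher and 1060 lower calls, WT 2274 and 1172, and Med14 S983A 2101 and 1420. Lower calls for the difference were 1036 with edgeR, 1187 with edgeR and ERCC scaling, 990 with DESeq2 and 1162 with DESeq2 and ERCC size factors. In WT the higher calls were 1723 with median-centring, 1624 and 2454 with edgeR without and with ERCC scaling, and 1728 and 2446 with DESeq2, and the lower calls were 1481 with median-centring and 1327 and 1323 with edgeR and DESeq2 on ERCC scaling. In Med14 S983A the higher calls with ERCC scaling were 2267 with edgeR and 2263 with DESeq2. With no fold minimum the counts were 3688 and 2266 for the difference, 2634 and 5637 in WT, and 3302 and 4804 in Med14 S983A. The median difference of 0.079 became 0.0165 with no filter, -0.0121 with median-centring, -0.0650 with ERCC scaling, -0.0173 and -0.0697 with edgeR without and with ERCC scaling, and -0.00797 and -0.0695 with DESeq2. Apart from the smaller number of tests or the missing fold minimum, the cause was not tested. Plat reversed to 0.41, 0.35, 0.48 and 0.41 with edgeR, edgeR on ERCC scaling, DESeq2 and DESeq2 on ERCC scaling, and Gprc5a to 0.33, 0.27, 0.40 and 0.32. Without WT CON replicate 2, WT 16 h FSK replicate 1, Med14 S983A CON replicate 2 or Med14 S983A 16 h FSK replicate 2, Mvd was not called, without any of the last 3 Pdx1 was not, and without WT CON replicate 2, WT 16 h FSK replicate 2, Med14 S983A CON replicate 1 or Med14 S983A 16 h FSK replicate 1 Myt1 was not, with values as small as -0.54, -0.58 and -0.55. The replicate block gave 1092 higher and 659 lower calls. Deviations of same-numbered libraries had r from -0.14 to 0.05 over 6 pairs of the 8 libraries. Over 91 pairs of the 28 libraries r ran from -0.28 to 0.28. With 2 libraries per group these values cannot settle whether equal numbers mark libraries handled together, and the main fit did not pair them.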
